A study of Macaca mulatta with 24 samples.

Results

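Genes of the Wnt pathway were described in the endometrium of rhesus monkeys, the inner layer of the uterus in which an embryo implants. A gene was included when the gene name in the array files was that of a Wnt ligand, a Frizzled or LRP receptor, a secreted antagonist of the SFRP, DKK or WIF families, or one of the core transducers and helpers of the pathway. This rule found 36 genes with 1 probe each, out of 19191 features on the array, counting each named gene once and each probe without a gene name once. Of these genes, 14 encode ligands, 1 a factor for ligand secretion, 9 receptors, 9 antagonists and their co-receptor, and 3 transducers inside the cell. Total RNA was hybridised to 24 single-colour arrays, 12 from cycles in which mating led to a proven conception and 12 from cycles with normal ovulation and no mating. Each kind of cycle was sampled 2, 4 and 6 days after ovulation, with 4 arrays in each of the 6 groups. The labels name no treatment, genotype or age. Whether each array stands for an animal of its own is not stated, so the p-values rest on a spread between samples that may be technical. Only arrays of whole endometrial tissue were used, in which fewer cells of a type and less RNA per cell cannot be told apart.

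Wnt proteins are secreted, lipid-modified signals. WLS carries them from the Golgi to the cell surface, Frizzled proteins receive them together with the co-receptors LRP5 and LRP6, and in the canonical branch the signal frees beta-catenin from a destruction complex held together by APC and AXIN, so that it can act with the DNA-binding proteins LEF1 and TCF7L1. SFRP proteins, FRZB and WIF1 bind the ligands outside the cell, whereas DKK1 blocks the LRP co-receptors. In the uterus this pathway is known for gland formation and for decidualisation, the change of stromal cells that accompanies implantation, in which WNT4 acts, and DKK1 is known as a stromal gene that responds to progesterone.

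The probes for 6 of these genes are shown because the comparisons turn on them. Each is given by the first 30 bases of its 60, 5′ to 3′ and in lower case throughout, with the position of the whole probe on the rheMac2 build as the files give it. The files do not say whether a probe lies in an exon, an intron or an untranslated region.
WLS, chr1:70916424-70916483, minus strand: gcctccaaaagtgtagatccaatcatttaa
DKK1, chr9:84935328-84935387, minus strand: ccccttttaattccggagtctagaatgcaa
WNT4, chr1:24707317-24707376, minus strand: ccactcagttgttatctgtgtccatttttc
WNT5A, chr2:80907390-80907449, plus strand: aaaggaatggaggaaaattgcatcttagac
WNT7A, chr2:47216901-47216960, plus strand: ggctagagcgaagccttttgcagcaggaac
FRZB, chr12:46451217-46451276, minus strand: aagcacaactgaaaccagtagccgctgggg
Among the 630 pairs of probes of the 36 genes the longest run of bases they shared was 9, between WNT2B and WNT7B. The G and C content of the probes ranged from 26.7% to 60%, and no reading of these probes was saturated (0 readings).

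A level below is a probe's log2 signal after the 75th percentile of the same array was subtracted, so that 0 is the brightness of the probe at that percentile. A level describes 1 probe across arrays and says nothing of 1 gene against another. The 75th percentile of the signal ran from 23.1 to 5421 between arrays, and 21 arrays had 53.3% to 71.5% of their probes well above background. On 3 non-mated arrays, called weak below, that share was 4.33% (day 2 replicate 3), 37.9% (day 4 replicate 1) and 21.8% (day 4 replicate 2). On non-mated day 2 replicate 3 most of the probes described here read close to -0.28 whatever their level elsewhere. Values that use a weak array are given for all arrays, and those the results turn on also without the weak ones. Without them non-mated day 4 holds only 2 arrays. The arrays lay on 9 slides scanned on 2 days. On scan day 1 slides 5 and 6 held only non-mated arrays and slides 7 and 8 only conception arrays. Slide and kind of cycle therefore cannot be told apart there. Of the 6 arrays scanned over a single range, 5 were from conception cycles and 1 was non-mated. On day 2 these numbers were 3 and 1. As a check of the tissue label, HOXA10, HOXA11, FOXA2 and PAEP were well above background on all 21 of the other arrays. These are the 4 of 7 listed endometrial genes that could be tested. Conception day 2 replicate 2 stood apart in smooth muscle genes, with a mean level of 3.83 over 8 of 10 listed genes, against -0.28 to 1.50 on the other arrays.

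Of the 36 genes, 22 were well above background on at least 3 arrays of a group and were tested. These were the ligands WNT2, WNT3, WNT4, WNT5A, WNT7A and WNT11, the secretion factor WLS, the receptors FZD1, FZD2, FZD4, FZD9, FZD10 and LRP5, the antagonists SFRP1, SFRP4, FRZB, WIF1, DKK1 and DKK3, and the transducers APC, LEF1 and TCF7L1. On all 21 arrays that were not weak, 13 of them were detected. The other 14 genes were too dim. DKK4, KREMEN1, WNT7B and WNT8B were well above background on 0 of 24 arrays. WNT10A, the most often detected of the 14, reached 10 arrays, FZD7 and DKK2 reached 8 each, and FZD8, WNT16, WNT8A, WNT2B, WNT6, FZD3 and WNT9B between 1 and 3. Detection depends on the array as well as on the gene, since the lowest level that counted as well above background ran from -6.70 to -3.99 over the 21 arrays that were not weak, so that counts of detected arrays were not compared between groups. The probes for WNT6 and WNT10A lie 20.4 kb apart on chromosome 12, and those for WNT3 and WNT9B 114 kb apart on chromosome 16. In neither pair were both genes bright enough to test.

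**Figure D1:**
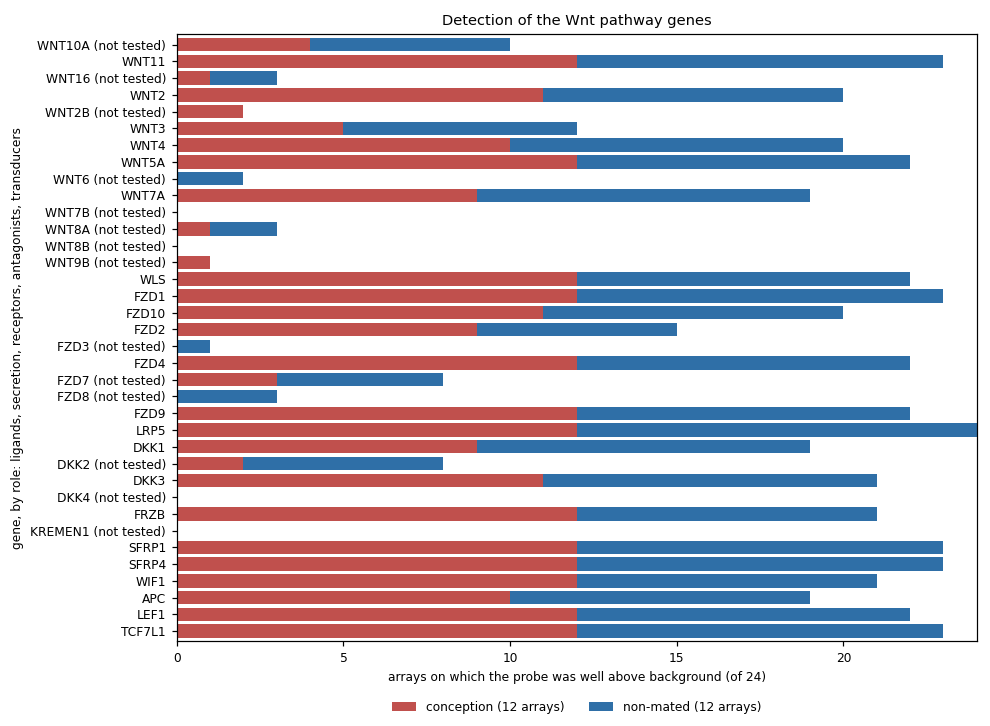
Number of arrays, of 24, on which the probe of each of the 36 genes was well above background, split into conception (red) and non-mated (blue) cycles. LRP5 was detected on all 24 arrays, whereas DKK4, KREMEN1, WNT7B and WNT8B were detected on 0.

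The genes differed widely in how steady they were between arrays of the same group. Over the 21 arrays that were not weak, the SD within groups was smallest for WLS at 0.265 and for APC at 0.276, and largest for DKK1 at 1.45 and WNT4 at 1.67. The median over the 22 genes was 0.771, against 0.516 over all 12193 features tested (genes, or single probes without a gene name), and 16 of the 22 lay above the latter value. A log2 difference of a given size was thus easier to separate from the spread for WLS, at the 6.76th percentile of all features in this SD, than for WNT4 at the 98.6th.

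**Figure D2:**
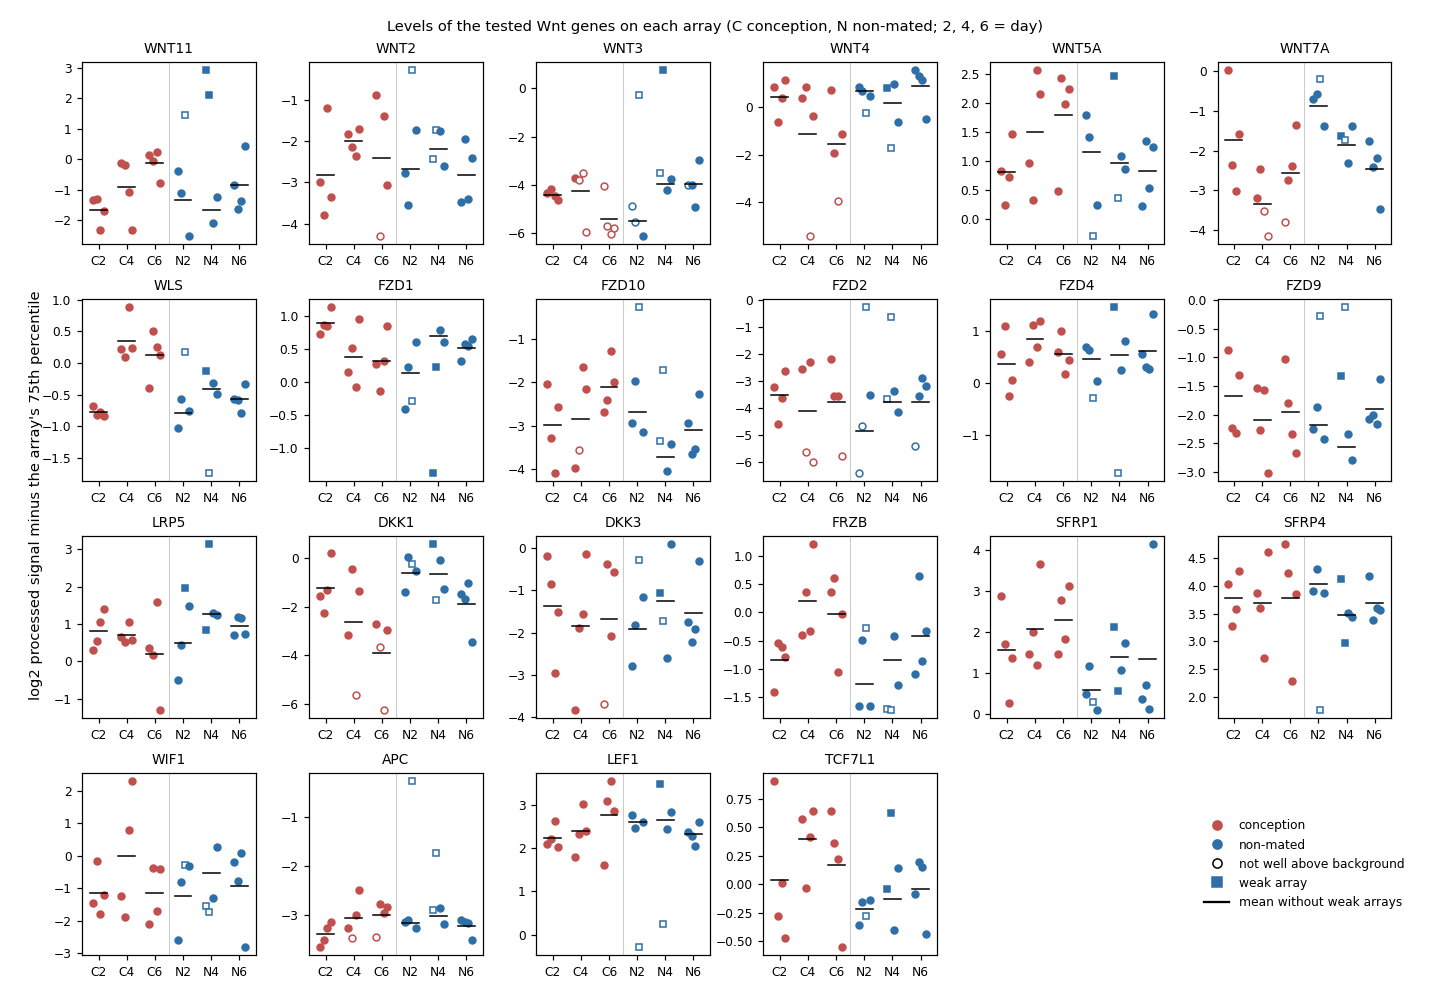
Level of each of the 22 tested genes on every array, in log2 units relative to the array's 75th percentile, by group (C conception, N non-mated, with the day). Open symbols were not well above background, squares are the 3 weak arrays, and bars are means without the weak arrays; WLS is low on the 4 arrays of conception day 2 and higher on days 4 and 6.

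The series compared conception cycles with non-mated cycles on each day. With all 24 arrays in 1 limma model, 0 of the 22 genes differed at an adjusted p under 0.05 on day 2, day 4 or day 6, or in the mean of the 3 days. Among all 12193 features the share that passed was 0% on day 2, 0% on day 4, 0.0082% on day 6 and 0.0082% in the mean of the days. An unadjusted p under 0.05 was reached by 1 of the 22 on day 2 (2.5% of all features), 4 on day 4 (6.09%), 2 on day 6 (2.39%) and 5 in the mean of the days (6.69%). The smallest adjusted p-values of limma among the 22 were 0.791, 0.686, 1 and 0.575. Without the 3 weak arrays 0 of the 22 passed on any day, against 0.0246% of all features on day 6, and an unadjusted p under 0.05 was reached by 1 on day 2 (1.22% of all features), 1 on day 4 (5.46%), 3 on day 6 (9.33%) and 4 in the mean of the days (7.68%). The genes did not shift together. In the mean of the days 11 were higher and 11 lower in conception cycles, with a median log2 difference of 0.03 against -0.06 over all features. With the weak arrays left out 14 were higher and 8 lower, with a median of 0.10 against 0.02. Log2 differences below are conception minus non-mated, each with its SE.

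**Figure D3:**
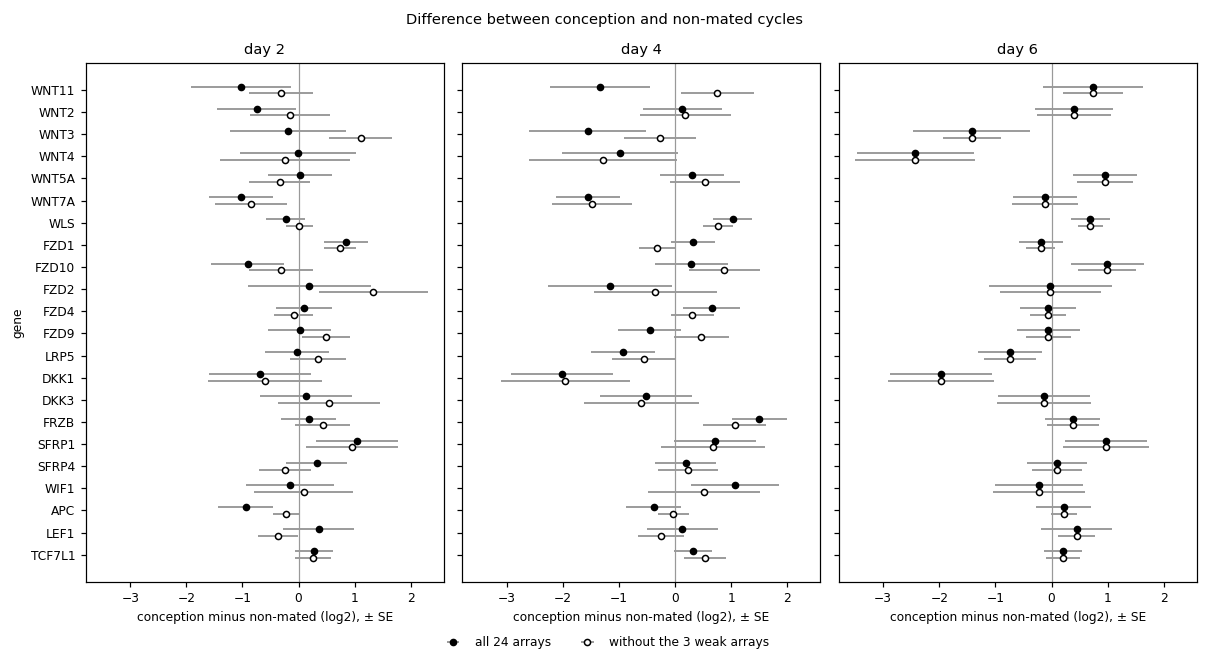
Log2 difference between conception and non-mated cycles for the 22 tested genes on days 2, 4 and 6, with the standard error of the limma fit. Filled circles use all 24 arrays and open circles leave out the 3 weak arrays, which moves day 2 and day 4 but leaves the day 6 differences in place; WNT4 and DKK1 lie lowest on day 6, at -2.43 and -1.97.

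Among the ligands, WNT4, which promotes decidualisation, gave the lowest value of day 6. Its level on conception day 6 was 0.70, -1.94, -3.95 and -1.13, the third of these not well above background, and on non-mated day 6 it was 1.52, 1.27, 1.13 and -0.52. The 2 groups overlapped, since conception replicate 1 lay above non-mated replicate 4. The log2 difference was -2.43 ± 1.04 (adjusted p = 1 in limma). On day 4 it was -0.98 ± 1.04 (-1.29 ± 1.32 without the weak arrays) and on day 2 -0.01 ± 1.04 (-0.24 ± 1.16), and the mean of the days gave -1.14 ± 0.60 (adjusted p = 0.681). Conception day 4 replicate 3 stood out, with WNT4 at -5.39 and not well above background, against 0.35, 0.83 and -0.40 on the other 3 arrays of its group. Without this array the WNT4 difference of day 4 was 0.43 ± 0.81, the opposite sign, and that of the mean of the days -0.67 ± 0.45. With quantile normalization the day 4 value was 0.03, where the median of all features was 0.41.

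DKK1, the inhibitor of the LRP co-receptors, gave the smallest p-value of the mean of the days with all 24 arrays, whereas WLS did without the weak arrays and with array weights. In conception cycles its level was -1.57, -2.28, -1.31 and 0.20 on day 2, -3.16, -0.46, -5.63 and -1.35 on day 4, and -2.70, -3.67, -6.22 and -2.95 on day 6. In non-mated cycles it was -1.40, 0.01, -0.28 and -0.54 on day 2, 0.54, -1.73, -0.10 and -1.27 on day 4, and -1.48, -1.70, -1.05 and -3.44 on day 6. The conception arrays tended to be the lower ones, but the groups overlapped on every day. On conception day 6 DKK1 was well above background on only 2 of the 4 arrays. Conception minus non-mated gave -0.69 ± 0.91 on day 2, -2.01 ± 0.91 on day 4 (adjusted p = 0.686) and -1.97 ± 0.91 on day 6 (adjusted p = 1). In the mean of the days it was -1.56 ± 0.52 (adjusted p = 0.575 in limma), and -1.51 ± 0.60 without the 3 weak arrays. Without conception day 4 replicate 3, on which DKK1 was not well above background, the value was -1.02 ± 0.82 on day 4 and -1.23 ± 0.45 in the mean of the days. On day 2 the sign turned with quantile normalization, to 0.51, where the median of all features was 0.49.

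On 2 arrays of slide 7, neither DKK1 nor WNT4 was well above background. Slide 7 held replicate 3 of each conception day. Conception day 4 replicate 3 had the lowest WNT4 level and conception day 6 replicate 3 the lowest DKK1 level of all 24 arrays, whereas conception day 2 replicate 3 on the same slide had WNT4 at 0.35 and DKK1 at -1.31. Slide 8 held replicate 4 of each conception day, and there DKK1 went from 0.20 on day 2 to -1.35 on day 4 and -2.95 on day 6, and WNT4 from 1.12 to -0.40 and -1.13. Slide 1 is the only slide with both kinds of cycle on day 6, and there the difference between the 2 conception arrays and the 1 non-mated array was -1.71 for DKK1 and -2.13 for WNT4. Conception day 6 replicate 3 also had 616 flagged spots, against at most 50 on any other array, and the lowest mean level of stromal markers, 0.78 over 9 of 10 listed genes, against 1.25 to 2.74 elsewhere. The part of these features in the result was not tested. Leaving out conception day 6 replicate 3 gave a day 6 difference of -1.64 for WNT4 and -1.19 for DKK1, and leaving out conception day 6 replicate 1 gave -3.19 for WNT4.

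The other ligands gave smaller or less steady differences. WNT7A, which is known for its role in the uterine epithelium, read -3.19, -2.47, -3.52 and -4.14 on conception day 4 and -1.64, -1.73, -2.32 and -1.38 on non-mated day 4. The 4 conception arrays lay below the 4 non-mated arrays, although 2 conception arrays and 1 weak non-mated array were not well above background. The log2 difference was -1.56 ± 0.57 (adjusted p = 0.686), and -1.48 ± 0.72 (adjusted p = 0.863) without the weak arrays. It was -1.02 ± 0.57 on day 2 (-0.85 ± 0.64 without the weak array) and -0.11 ± 0.57 on day 6, and in the mean of the days it was -0.90 ± 0.33 (adjusted p = 0.656).

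WNT5A, a ligand that mostly acts outside the beta-catenin branch, read 0.49, 2.43, 1.98 and 2.24 on conception day 6 and 0.23, 1.34, 0.53 and 1.25 on non-mated day 6, and the groups overlapped. They differed by 0.95 ± 0.57 (adjusted p = 1). WNT3 was not well above background on any of the 4 arrays of conception day 6 and was on 3 of 4 arrays of non-mated day 6. The lowest level that so counted ran from -4.63 to -3.99 on the former arrays and from -6.70 to -4.30 on the latter. These counts are therefore not read as a difference between the groups. Its measured means were -5.39 and -3.97, and the fitted difference was -1.42 ± 1.04. No fold is given for WNT3, since a probe could read above that lowest level and still not count as well above background. On day 4 the fitted difference of WNT3 was -1.56 ± 1.04, but weak replicate 2 of the non-mated arrays read 0.75 while the other 3 read -3.52 or lower, and without the weak arrays it was -0.27 ± 0.64. With all arrays WNT11 and WNT2 differed by at most 1.34 in either direction on any day. WNT2 gave -0.75 ± 0.70 on day 2, which was -0.15 ± 0.71 without the weak array. With quantile normalization it was 0.41, where the median of all features was 0.49. For WNT11 the day 4 difference turned from -1.34 ± 0.89 to 0.75 ± 0.65 without the 2 weak arrays of non-mated day 4.

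WLS, on which the secretion of Wnt ligands depends, was higher in conception cycles on days 4 and 6 but not on day 2. Its level on conception day 4 was 0.22, 0.09, 0.88 and 0.23, against -0.13, -1.73, -0.32 and -0.49 on non-mated day 4, where replicates 1 and 2 are the weak arrays and replicate 2 was not well above background. On conception day 6 it was -0.39, 0.51, 0.25 and 0.12, against -0.57, -0.59, -0.78 and -0.33. On day 4 the groups did not overlap, and on day 6 only conception replicate 1 fell within the range of the non-mated arrays. The log2 difference was -0.23 ± 0.35 on day 2, 1.03 ± 0.35 on day 4 (adjusted p = 0.686) and 0.69 ± 0.35 on day 6 (adjusted p = 1), and none passed after adjustment. Without the weak arrays these values were 0.01 ± 0.24, 0.76 ± 0.27 (adjusted p = 0.863) and 0.69 ± 0.22 (adjusted p = 0.422). In the mean of the days the difference was 0.50 ± 0.20 (adjusted p = 0.681). On slide 1 the day 6 difference was 0.63, and it was 0.87 within scan day 1 and 0.51 within scan day 2. The value within scan day 1 sets slides of conception arrays against slides of non-mated arrays.

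Of the receptors, FZD1 gave the smallest p-value of day 2. Its level was 0.72, 0.86, 0.85 and 1.13 on conception day 2 and -0.41, 0.23, -0.28 and 0.61 on non-mated day 2, and the groups did not overlap. The FZD1 difference was 0.85 ± 0.39 (adjusted p = 0.791), and 0.74 ± 0.28 without the weak array. On day 4 FZD1 differed by 0.32 ± 0.39, which turned to -0.32 ± 0.32 without the weak arrays, and on day 6 by -0.19 ± 0.39. FZD10 gave -0.91 ± 0.65 on day 2 and 0.99 ± 0.65 on day 6. Its day 2 value was -0.31 ± 0.57 without the weak array. With quantile normalization that value was 0.29, where the median of all features was 0.49. LRP5, the co-receptor, gave -0.92 ± 0.57 on day 4, where the weak non-mated replicate 2 was the highest array at 3.13, and -0.55 ± 0.57 without the weak arrays. With the slide also as a block it was 0.50. With all arrays FZD4 and FZD9 differed by at most 0.65 on any day. FZD2 gave -1.16 ± 1.10 on day 4, which was -0.35 ± 1.10 without the weak arrays and 1.95 with the slide also as a block.

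Among the ligand-binding antagonists, FRZB gave the smallest p-value of day 4 with all 24 arrays, but WLS and WNT7A came before it without the weak arrays and with array weights. Its level on conception day 4 was -0.40, 0.36, -0.33 and 1.21, and on non-mated day 4 it was -1.72, -1.73, -0.41 and -1.29. The groups did not overlap, but the nearest arrays lay at -0.40 and -0.41, and the 2 lowest values came from weak arrays on which FRZB was not well above background. The log2 difference was 1.50 ± 0.49 (adjusted p = 0.686), and 1.06 ± 0.56 (adjusted p = 0.863) without the weak arrays. It was 0.18 ± 0.49 on day 2 (0.43 ± 0.49 without the weak array), 0.38 ± 0.49 on day 6 and 0.69 ± 0.28 (adjusted p = 0.681) in the mean of the days. SFRP1 was on average higher in conception cycles on each day, by 1.04 ± 0.73, 0.71 ± 0.73 and 0.97 ± 0.73, and by 0.91 ± 0.42 (adjusted p = 0.681) in the mean of the days. Without the weak arrays the values of days 2 and 4 were 0.96 ± 0.82 and 0.68 ± 0.93. One non-mated array, day 6 replicate 4, nevertheless had the highest SFRP1 level of all 24, at 4.15, against 0.37, 0.72 and 0.13 in the rest of its group. WIF1 gave 1.07 ± 0.79 on day 4, from levels of -1.23, -1.87, 0.79 and 2.28 against -1.54, -1.73, -1.30 and 0.26, and 0.51 ± 1.00 without the weak arrays. With array weights it was -0.42. With all arrays SFRP4 differed by at most 0.32 on any day. DKK3 gave -0.52 ± 0.82 on day 4, which was -0.60 ± 1.03 without the weak arrays and 0.13 without conception day 4 replicate 1.

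The transducers gave small values. APC gave -0.94 ± 0.49 on day 2, but the weak array of non-mated day 2 read -0.28 while the other 3 read -3.15, -3.10 and -3.26, and without it the difference was -0.22 ± 0.24. With quantile normalization it was 0.27 and with normexp background correction 0.11, where the medians of all features were 0.49 and 0.15. TCF7L1 gave 0.28 ± 0.34 on day 2, and -0.01 without conception day 2 replicate 1. LEF1, whose product binds beta-catenin on DNA, differed by at most 0.45 on any day with all arrays, and its values on days 2 and 4 turned from 0.36 to -0.37 and from 0.13 to -0.25 without the weak arrays.

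Counted by overlap, the 4 arrays of conception and the 4 of non-mated cycles did not overlap for 1 of the 22 genes on day 2 (FZD1), against 1.4% of all features. On day 4 this held for 3 genes (FRZB and WLS higher, WNT7A lower), against 2.42% of all features, and on day 6 for 0 genes, against 4.31%. Without the weak arrays this held for 2 genes on day 2 (FZD1 and WNT3 higher), against 2.8% of all features, and for 4 on day 4 (FRZB and WLS higher, LRP5 and WNT7A lower), against 14%, where 4 arrays faced 2. WNT3 was well above background on only 1 array of non-mated day 2. Its day 2 difference was -0.19 ± 1.04 with all arrays and 1.11 ± 0.56 without the weak ones.

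Within conception cycles, WLS was steady between the arrays of day 2 and higher on days 4 and 6. Its level on conception day 2 was -0.68, -0.82, -0.77 and -0.83, a mean of -0.77 ± 0.07 (SD, n = 4). The mean was 0.36 ± 0.36 on day 4 and 0.13 ± 0.38 on day 6, and every array of days 4 and 6 lay above every array of day 2. The log2 difference of day 6 from day 2 was 0.90 ± 0.35 (1.87-fold, adjusted p = 0.998 in limma with all arrays). Without the 3 weak arrays, which are non-mated and enter this comparison only through the shared estimate of spread, it was 0.90 ± 0.22 (adjusted p = 0.0441) and passed with an adjusted p of 0.0441. In that fit 1 of the 22 genes passed, against 1.7% of all features, and an unadjusted p under 0.05 was reached by 4 of the 22, against 15.2%. A fit that weighted the arrays by their quality also called WLS, at 0.99 ± 0.21 with an adjusted p of 0.0267, and there 1.65% of all features passed.

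The call held in few fits. Of the 24 alternatives that left out 1 array each, 0 called WLS for day 6 against day 2. None of these left out more than 1 of the 3 weak arrays. They therefore do not show whether the call rests on a single array. Of the 16 other alternatives 2 did, and these are the 2 fits given above. With conception day 2 replicate 2, the array high in smooth muscle genes, also left out, the WLS difference was 0.89 ± 0.24 with an adjusted p of 0.108, while the share of features that passed dropped to 0.673%. With the slide as a block and the weak arrays left out it was 0.95 ± 0.29 with an adjusted p of 0.141, and there WNT11 was called instead, at 1.84 with an adjusted p of 0.0456 (1.58% of all features). Within slide 7 WLS differed by 1.02 and within slide 8 by 0.95. Within scan day 1 the value was 0.98 and within scan day 2 it was 0.82. Of the 4 arrays of conception day 2, 3 were scanned over a single range, as was 1 of conception day 6, and with scan range as a block the difference was 0.87 ± 0.38. Marker genes of cell types were also compared between days 2 and 6. The 6 tested epithelial markers had a median difference of -0.48 from day 2 to day 6 (mean of the list per array from 2.46 to 3.52 on day 2 and from 2.26 to 2.83 on day 6), and the 9 stromal ones -0.07. The 5 tested leukocyte markers had a median of 0.19, with means from -0.53 to 0.35 and from 0.12 to 0.46, the 8 smooth muscle ones -0.11 and the 6 endothelial ones 0.01. In the fit without the weak arrays 0 of these markers passed, and the smallest adjusted p was 0.142. The part of these markers in the WLS difference was not tested.

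WLS was also higher on conception day 4 than on day 2, by 1.13 ± 0.35 (adjusted p = 1). With array weights this passed, at 1.03 ± 0.19 with an adjusted p of 0.0261 (0.246% of all features passed). Without the weak arrays it was 1.13 ± 0.22 with an adjusted p of 0.0976, where 0.0082% of all features passed, and in that fit 3 of the 22 genes reached an unadjusted p under 0.05, against 8.32% of all features. From day 4 to day 6 the value was -0.23 ± 0.35. In non-mated cycles WLS read -1.03, -0.56, 0.17 and -0.76 on day 2, of which the third is the weak array, and day 6 minus day 2 gave -0.02 ± 0.35, or 0.22 ± 0.24 without that array. The difference between the day effects of the 2 kinds of cycle was 0.92 ± 0.49 (adjusted p = 0.904), and 0.68 ± 0.32 (adjusted p = 0.935) without the weak arrays, so a course particular to conception cycles was not shown.

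**Figure D4:**
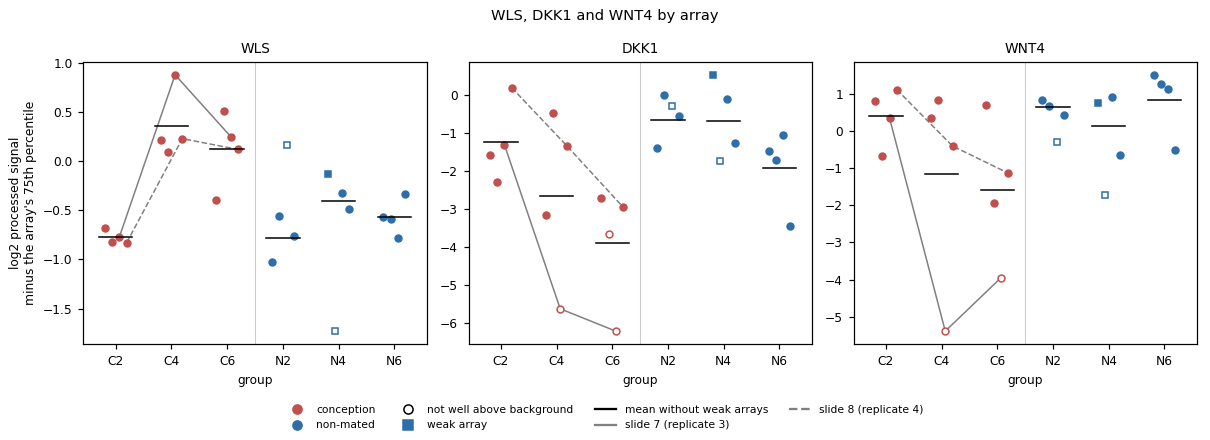
Levels of WLS, DKK1 and WNT4 on each array, in log2 units relative to the array's 75th percentile, with grey lines joining the 3 conception arrays of slide 7 (solid) and of slide 8 (dashed). WLS lay between -0.83 and -0.68 on conception day 2 and was higher on both slides later, whereas DKK1 and WNT4 were not well above background on the day 4 and day 6 arrays of slide 7.

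In all 24 arrays, 0 of the 22 genes passed for day 4 or day 6 against day 2 in conception cycles, or for day 6 against day 4 (limma, adjusted p under 0.05), and 0%, 0.0164% and 0% of all features did. An unadjusted p under 0.05 was reached by 3, 2 and 0 of the 22 genes, against 2.53%, 4.16% and 0.623% of all features. DKK1 had the smallest p-value for day 6 against day 2, with a log2 difference of -2.65 ± 0.91 (adjusted p = 0.998), and its 4 day 6 arrays lay below its 4 day 2 arrays. It was well above background on only 2 of these day 6 arrays, so the difference is not a measured size. Without conception day 6 replicate 3 the difference was -1.87. Within slide 7 DKK1 differed by -4.91, within slide 8 by -3.15 and within scan day 2 by -1.26.

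WNT11 read -1.33, -1.31, -2.31 and -1.70 on conception day 2 and 0.15, -0.05, 0.23 and -0.78 on day 6, with no overlap. The difference was 1.55 ± 0.89 (adjusted p = 0.998), and 1.55 ± 0.53 (adjusted p = 0.164) without the weak arrays. WNT4 gave -1.99 ± 1.04 (-1.20 without conception day 6 replicate 3), WNT5A 0.97 ± 0.57 and WNT7A -0.84 ± 0.57 from day 2 to day 6. From day 2 to day 4, WNT7A gave -1.60 ± 0.57 (adjusted p = 1), FRZB 1.06 ± 0.49 (adjusted p = 1), WIF1 1.14 ± 0.79, DKK1 -1.41 ± 0.91 and WNT4 -1.56 ± 1.04. Without conception day 4 replicate 3 the last pair of values was -0.42 ± 0.82 for DKK1 and -0.14 ± 0.81 for WNT4. FRZB on day 4 lay above its day 2 arrays throughout, at -0.40 or higher against at most -0.54. From day 4 to day 6 the values were 0.76 ± 0.57 for WNT7A, 0.74 ± 0.65 for FZD10, 0.80 ± 0.89 for WNT11, -1.14 ± 0.79 for WIF1 and -1.24 ± 0.91 for DKK1, the last being -2.23 ± 0.82 without conception day 4 replicate 3. WNT3 also had 1 of the 3 smallest p-values of a lower level, at -1.15 ± 1.04, but it was well above background on 1 array of day 4 and 0 arrays of day 6, so no fold is given. Groups did not overlap for 2 of the 22 genes between days 2 and 4 (FRZB and WLS), against 4.17% of all features, for 3 between days 2 and 6 (DKK1 lower, WLS and WNT11 higher), against 7.71%, and for 0 between days 4 and 6, against 2.23%.

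In non-mated cycles, 0 of the 22 genes differed between days 6 and 2 at an adjusted p under 0.05 (limma), and 0% of all features did. An unadjusted p under 0.05 was reached by 1 of the 22 (3.24% of all features). This was WNT7A, at -0.69, -0.58, -0.19 and -1.37 on day 2 and -1.76, -2.42, -2.18 and -3.47 on day 6. All 4 arrays of day 6 lay below those of day 2, which held for 2.99% of all features. Day 6 minus day 2 gave -1.75 ± 0.57 (adjusted p = 0.765), and -1.58 ± 0.64 (adjusted p = 1) without the weak array. The only slide with both days and no weak array, slide 6, gave -0.81. Without the weak array 2 of the 22 genes reached an unadjusted p under 0.05, against 1.82% of all features. They were WNT7A and WNT3, the latter at 1.53 ± 0.56 (adjusted p = 1), which was 0.23 ± 1.04 with all arrays, and WNT3 was well above background on only 1 array of non-mated day 2. With the slide as a block and the weak arrays left out, however, the WNT7A value from day 2 to day 6 was 0.13 in non-mated and 0.12 in conception cycles. The other values from day 2 to day 6 were -0.78 ± 0.49 for APC, -1.01 ± 0.65 for FZD10, 0.62 ± 0.49 for FRZB, 0.48 ± 0.39 for FZD1 and 0.83 ± 0.73 for SFRP1, and that of SFRP1 was -0.11 without non-mated day 6 replicate 4. Without the weak array these were -0.05 ± 0.24 for APC, -0.41 ± 0.57 for FZD10, 0.86 ± 0.49 for FRZB, 0.37 ± 0.28 for FZD1 and 0.75 ± 0.82 for SFRP1. With quantile normalization APC gave 0.45 and FZD10 0.25, where the median of all features was 0.48.

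The difference between the 2 day effects, conception minus non-mated, passed for 0 of the 22 genes (limma, adjusted p under 0.05) and for 0% of all features. An unadjusted p under 0.05 was reached by 1 gene, against 2.1% of all features. That gene was FZD10, at 1.90 ± 0.91 (adjusted p = 0.904). APC gave 1.16 ± 0.69, FZD1 -1.04 ± 0.56, WNT4 -2.42 ± 1.47 and DKK1 -1.28 ± 1.28. With quantile normalization APC gave -0.14, where the median of all features was -0.59. All of these values use non-mated day 2, which holds the array with the lowest share of probes well above background. Once the weak arrays were left out 3 genes reached an unadjusted p under 0.05, against 4.27% of all features, and FZD10, at 1.30 ± 0.77 (adjusted p = 0.935), was not among them. They were WLS, given above, FZD1 at -0.94 ± 0.38 (adjusted p = 0.935) and WNT3 at -2.53 ± 0.77 (adjusted p = 0.935). WNT3 was well above background on 0 arrays of conception day 6 and 1 of non-mated day 2, so its value is not a measured size. In the same fit APC gave 0.44 ± 0.33, WNT4 -2.19 ± 1.58 and DKK1 -1.37 ± 1.38.

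A further 13 genes of these families are on the array under names that the rule did not match, such as a gene ID or a description, and 11 of them were tested. None passed in any comparison with all arrays (0 of 11, limma). In the mean of the days, 2 of the 11 reached an unadjusted p under 0.05, against 6.69% of all features. SFRP5, a ligand-binding antagonist, gave -1.99 ± 0.69 (adjusted p = 0.61), and -1.74 ± 0.81 without the weak arrays. It read 0.79, -2.48, -4.28 and -0.03 on conception day 2. On conception day 4 it was not well above background on any of the 4 arrays, where the lowest level that so counted had a mean of -4.29. The mean of SFRP5 on conception day 2 was 6.94-fold above that level, although replicate 3 of day 2 lay close to it. This is not a least fold against day 4. A probe could read above that level and still not count as well above background. On non-mated days 2 and 6 SFRP5 was well above background on 3 and 4 arrays. FZD5, a receptor, gave -1.53 ± 0.59 on day 6 (adjusted p = 1), and PORCN, the enzyme that adds the lipid to Wnt ligands, gave 2.07 ± 1.01 (adjusted p = 1). The values for CTNNB1, the gene of beta-catenin, ranged by group mean from 1.86 on non-mated day 2 to 3.21 on conception day 6, with SDs between 0.58 and 1.35. The lowest of these means belongs to a group that holds a weak array. Over the 21 arrays that were not weak, CTNNB1 read from 1.69 to 4.93, with a median of 2.75.

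The wider pathway was read from lists. Of 26 listed Wnt target genes 16 were tested, and in the mean of the days 9 were higher and 7 lower in conception cycles, with a median of 0.01 against -0.06 over all features. None passed (0 of 16, limma), and 3 had an unadjusted p under 0.05, against 6.69% of all features. Without the weak arrays 6 were higher and 10 lower, with a median of -0.08 against 0.02. The smallest p-values in each direction belonged to CYR61, at 0.66 ± 0.40, and SP5, at -0.55 ± 0.21. Among 4 of 9 listed R-spondins, their receptors and the linked ubiquitin ligases, 1 was higher and 3 lower, with RSPO1 at 0.73 ± 0.92 and LGR5 at -1.08 ± 0.57, the latter -0.10 ± 0.36 without the weak arrays. Among 25 of 37 genes of the destruction complex and the nuclear cofactors, 13 were higher and 12 lower, with TLE5 at 0.61 ± 0.32 (0.21 ± 0.14 without the weak arrays) and TLE4 at -0.55 ± 0.32. Among 14 of 29 genes of the planar polarity and calcium branch, 9 were higher and 5 lower, with the Wnt receptor ROR2 at 0.41 ± 0.22 and the related ROR1 at -0.79 ± 0.29 (adjusted p = 0.657). Among 11 of 18 other secreted or surface modulators, 6 were higher and 5 lower, with GPC4, a surface proteoglycan, at 0.99 ± 0.39 (adjusted p = 0.679) and NOTUM, which removes the lipid of Wnt ligands, at -0.59 ± 0.43, which was 0.10 ± 0.21 without the weak arrays. None of these lists held a gene that passed with all arrays in the mean of the days.

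Between days 6 and 2 of conception cycles 1 gene of these lists passed once the weak arrays were left out, as did 1.7% of all features. This was ROR1, a receptor for WNT5A, whose level was 0.28, -0.97, -0.77 and -0.60 on day 2 and -1.39, -3.09, -2.90 and -1.75 on day 6. It fell by 1.77 on the log2 scale (SE 0.41, adjusted p = 0.0355), and all its day 6 arrays lay below those of day 2. In non-mated cycles ROR1 read 0.12, 0.55, -0.28 and -0.30 on day 2 and -2.28, -1.15, -0.97 and -2.09 on day 6, again without overlap, and the value was -1.75 ± 0.44 (adjusted p = 1) without the weak array. The 2 day effects differed by -0.02 ± 0.60 (adjusted p = 0.998). For conception cycles the adjusted p was 0.856 with all arrays, 0.0592 without conception day 2 replicate 2 as well, and 0.229 with the slide as a block and the weak arrays left out. In the planar polarity and calcium branch 2 genes were higher and 12 lower on day 6, with a median of -0.26 against -0.02 over all features. The value for LRP4 among the modulators was -1.97 ± 0.58 (adjusted p = 0.102), for the target genes NKD2 and CCN5 -2.14 ± 0.71 (adjusted p = 0.149) and 0.93 ± 0.59, and for APC2 of the destruction complex 0.92 ± 0.34 (adjusted p = 0.202). CELSR2, DACT1, LGR5, CSNK1G3 and LGR4 gave 0.18 ± 0.55, 1.07 ± 0.57, 0.72 ± 0.56, -0.74 ± 0.31 and -0.21 ± 0.53.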

How the data were processed

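Per the labels, 200 ng of Trizol-extracted total RNA was amplified into cRNA carrying Cy3. The deposited scanner files hold a background-corrected intensity per spot from Agilent Feature Extraction (9.5.3.1 per the file headers, 10.7.3.1 per the submitters' processing notes). The authors' deposited value table, on the log2 scale with an unstated baseline, served as an alternative; its columns correlated with the scanner values at r from 0.990 to 1.00 and its medians ran from -0.406 to 2.85. For 8 non-mated samples the title says day 2 but all other labels say day 4 or 6, and the latter were followed. Source names of conception samples count the day from fertilization and descriptions from ovulation.

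Control spots were left out, as were outlier spots unless all spots of a probe were outliers, the 2 spots of each of 20217 probes were averaged, and the log2 signal minus the array's 75th percentile was used. Probes well above background on at least 3 arrays of a group were kept (12780, giving 12193 features, 1 probe per gene by highest mean). Named genes in the rule came from the file's gene names; other names came through gene IDs, accessions or descriptions and RefSeq (names only). The 6 group means were fitted with limma 3.58.1 (R 4.3.3; 18 residual degrees of freedom), two-sided, with Benjamini-Hochberg adjustment over all features and a threshold of 0.05. Arrays with under 40% of probes well above background are called weak. For each comparison the genes past the threshold and the 3 smallest p-values in each direction are named; of the lists, those past it and otherwise the smallest p in each direction. SFRP5, FZD5, PORCN, CTNNB1 and the genes of the slide 7 arrays were singled out after their values were seen. The members and lists were chosen with earlier results of these data known. Alternatives covered background correction, normalization, the filter, the value table, slide, scan day, scan range, array weights, the replicate block and leaving out arrays. The fit was tested on simulated data. The number of arrays limits the precision. Python 3.11.15, pandas 2.3.3 and matplotlib 3.10.9 were used.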

Additional observations from a re-analysis of the deposited data

Results flagged for a closer look

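In 7 of 132 sets of 4 arrays (the 22 genes in 6 groups) 1 array lay farther from the others than Dixon's 95% limit; chance gives about 1 in 20. APC read -0.28 on non-mated day 2 replicate 3, a weak array, against -3.26 to -3.10, and -3.51 on non-mated day 6 replicate 4 against -3.16 to -3.11. LEF1 read -0.28 on the same weak array against 2.47 to 2.76. SFRP1 read 4.15 on non-mated day 6 replicate 4 against 0.13 to 0.72. WNT3 read -5.95 on conception day 4 replicate 4 against -3.79 to -3.51, and -4.05 on conception day 6 replicate 1 against -6.03 to -5.69. It read 0.75 on the weak non-mated day 4 replicate 2 against -4.19 to -3.52. Not well above background were both WNT3 readings from conception arrays and the -0.28 readings of APC and LEF1.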

How the results depend on the processing

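Over 40 alternatives, 356 of 360 counts of the 22 genes past the threshold equalled that with all arrays. Of the 40, 24 left out 1 array each, so never more than 1 weak array, and gave 0 to 0 in every comparison. The exceptions were counts of 1: day 4 against day 2 in conception cycles with array weights, and day 6 against day 2 with array weights, without the weak arrays, and without them with slide as a block (chosen after seeing the data, like scan range as a block and the omission of conception day 2 replicate 2). Over all features, day 6 against day 2 gave 2 calls with all arrays, 207 without the weak arrays, 201 with array weights and 128 in a fit of the compared groups alone. With the replicate number as a block 0 of the 22 genes passed in any comparison. The labels do not say that these numbers pair samples, and a pairing was not evident (60 pairs, correlation of deviations -0.67 to 0.63, 20 above 0.1). These correlations cannot exclude one.

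The 54 values with the 3 smallest p in each direction of each comparison gave 2160 alternative values, of which 2142 kept direction and side of the threshold, 4 passed newly and 14 changed sign. Of all 198 values of the 22 genes, 119 changed sign under at least 1 alternative and 29 did so without the weak arrays, the largest of these 1.34 in size with all arrays. The 14 follow. With quantile normalization APC on day 2 was 0.27, FZD10 on day 2 0.29, APC and FZD10 from day 2 to day 6 in non-mated cycles 0.45 and 0.25, and the APC difference of day effects -0.14. With normexp correction APC on day 2 was 0.11 and its difference of day effects -0.14. TCF7L1 on day 2 was -0.04 with the percentile over detected probes and -0.01 without conception day 2 replicate 1. WIF1 on day 4 was -0.42 with array weights. SFRP1 from day 2 to day 6 in non-mated cycles ran from -0.11 without non-mated day 6 replicate 4 to 1.23 without replicate 3. Without weak arrays and with slide as a block, LRP5 on day 4 was 0.50, and WNT7A from day 2 to day 6 was 0.12 in conception and 0.13 in non-mated cycles. The cause was not tested. Scaling moved the median of all features on day 2 from -0.15 to 0.49 with quantile normalization and to -0.47 with the percentile over detected probes, and on day 4 from 0.02 to 0.41 with the former. The 3 weak arrays limit the non-mated side of days 2 and 4.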
